A study of Mus musculus with 135 samples.

Results

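*Myc*, *Mycn*, *Max*, *Mxd1*, *Mxd4*, *Mxi1*, *Mnt* and *Mlx* encode proteins of the Myc, Max and Mxd network, and their RNA was measured in single haematopoietic stem cells (HSCs) from a young and an old mouse. The genes were taken by name, and all 8 were found among the 15181 genes of the RefSeq read count table. *Myc* was expressed in most cells of both ages and *Mycn* in about as many cells as not, while the repressor genes *Mxd1*, *Mxd4*, *Mxi1* and *Mnt*, and the partner genes *Max* and *Mlx*, were each found in a minority of cells. *Myc*, *Mycn*, *Mxi1* and *Mnt* had higher mean levels in old cells, and *Max*, *Mxd1*, *Mxd4* and *Mlx* had higher mean levels in young cells, but no difference in mean log2 level reached 1, a factor of 2. The sign for *Mycn* turned under 6 of 12 alternatives, for *Mxd4* under 2 and for *Mlx* under 1. By summed reads, which single cells can dominate, *Mxi1*, *Mxd1* and *Max* differed by more than 1.

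Both groups were HSCs from the bone marrow of Vwf-eGFP reporter mice of the C57BL/6 strain, in which eGFP marks cells that use the *Vwf* gene. They were sorted as 7AAD-, lineage-, Sca-1+, c-Kit+, CD150+ and CD48- cells, and the labels name no selection on eGFP. The young cells came from 1 mouse of 2 to 3 months and the old cells from 1 mouse of 20 to 25 months, and each cell was turned into its own full-length cDNA library on a C1 microfluidic chip. The study asked how HSCs change with age.

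Network proteins carry a basic helix-loop-helix leucine zipper and bind DNA in pairs, mainly at the E-box CACGTG. Myc and N-Myc pair with Max and activate genes of ribosome assembly, metabolism and division, whereas Mxd1, Mxd4, Mxi1 and Mnt pair with Max to repress through Sin3 and histone deacetylases. Mlx pairs with some Mxd proteins, with Mnt and with the glucose-sensing Mondo proteins, and in HSCs Myc proteins are known for their part in the balance between self-renewal and differentiation.

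The E-box was searched for in the RefSeq promoters of the genes themselves (GRCm38.p6, 250 bases before to 50 after the start site), because the proteins of the network bind this motif. CACGTG reads the same on both strands, so that 1 search covers both, and no other motif was searched. A promoter was held for 7 of the 8 genes, all but *Myc*, and 4 of the 7 contained the motif. Among all genes with a promoter in the same table, 8.09% of 27025 contained it. Each match is shown with 12 bases on either side on the strand of the gene, with the E-box in capitals:
Max: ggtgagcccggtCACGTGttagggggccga
Mxd4: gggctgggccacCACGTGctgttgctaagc
Mnt: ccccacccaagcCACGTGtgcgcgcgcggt
Mlx: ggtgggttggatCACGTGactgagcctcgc
The *Max* window lay at chr12:76962234-76962263 on the minus strand, inside the gene as RefSeq draws it, with the first base of the motif at position -3 from the first transcribed base. The *Mxd4* window lay at chr5:34187912-34187941 on the minus strand, upstream of the gene, with the motif at position -219. The *Mnt* window lay at chr11:74830789-74830818 on the plus strand, across the 5′ end of the gene, with the motif at position -123. The *Mlx* window lay at chr11:101087238-101087267 on the plus strand, inside the gene, with the motif at position -40. No E-box of these letters was found in the 300 bases held for *Mycn*, *Mxd1* and *Mxi1*. A match describes the letters of the window and was not measured as a binding site.

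Of 61 young and 74 old cells in the table, 52 and 62 passed the study's limits on mapped reads, mitochondrial reads and detected genes and were used here. They had between 273236 and 5688706 reads counted on genes in young cells and between 276316 and 4086659 in old cells. Levels are given as log2(CPM + 1), where CPM scales each count to 1000000 counted reads of the cell, and cells with a value above 2, that is above 3 CPM, are called expressing cells of a gene. Shares carry 95% exact Clopper-Pearson intervals, which cover the drawing of cells from 1 mouse only. Summed reads carry 95% exact Poisson intervals, which take every read as independent. The reads had no molecular identifiers, so copies of 1 molecule are counted apart. The Poisson intervals are therefore too narrow, and they leave out the spread between cells. For a count of 0 the text gives in place of the interval the limit that 3 cells of those examined would make. With 1 mouse of each age there is no test, no replicate check and no p-value for any difference between ages, and the spread given is that between cells of 1 mouse. *Xist* was expressed in 50 young and 8 old cells and a Y-linked gene in 2 young and 58 old cells, both together in 2 young and 8 old cells, so that age, mouse, sex-linked genes and chip cannot be told apart.

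The HSC identity of the cells was checked on fixed markers. *Kit*, the receptor used in the sort, was expressed in 49 of the 52 young cells and 61 of the 62 old ones, and *Slamf1*, which encodes CD150, in 9 young and 15 old cells. All 7 HSC markers passed 10% of the cells. Of other lineages, the haemoglobin gene *Hba-a1* had 0 reads in every cell, and *Klf1* of the same erythroid list was expressed in 2 young and 0 old cells. The neutrophil elastase gene *Elane* was expressed in 0 young and 1 old cell, and the B cell gene *Cd79b* in 12 young and 16 old cells. The T cell gene *Cd3d* was expressed in 16 cells of each age and *Cd8a* in 3 of each. The lysozyme gene *Lyz2*, a marker of granulocytes and macrophages, was expressed in 43 cells of each age. Of the same list, *Itgam* was expressed in 8 young cells and 1 old cell, and *S100a8* in 4 young and 3 old cells. Of the megakaryocyte and platelet genes, *Gp9* was expressed in 14 young and 24 old cells, *Pf4* in 5 and 11, *Ppbp* in 2 and 2 and *Gp1bb* in 1 and 2. Their part in the differences below was not tested.

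**Figure D1:**
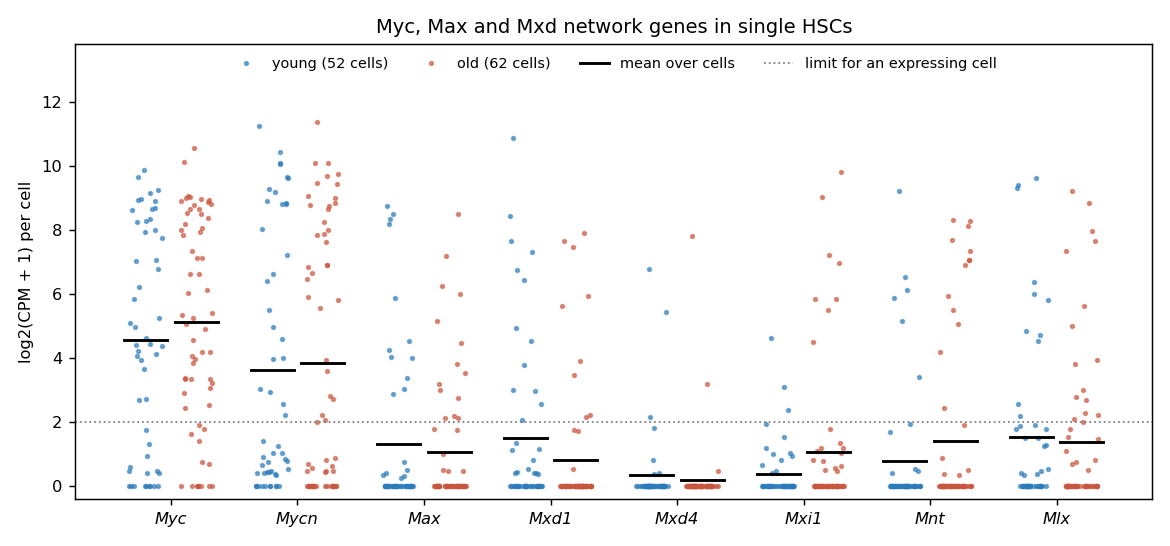
Level of the 8 genes in each cell as log2(CPM + 1) on the vertical axis, with young cells in blue and old cells in red; each point is 1 cell, black bars are means over cells and the dotted line at 2 is the limit for an expressing cell. *Myc* and *Mycn* spread from 0 to above 10 in at least 1 age, most cells lie at or near 0 for the other 6 genes, and young and old cells overlap for every gene.

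*Myc* (chr15:61985341-61990361, plus strand) encodes the activator after which the network is named. In the 52 young cells its level was 0 at the lowest, 4.43 at the median and 9.85 at the highest, and in the 62 old cells 0, 5.15 and 10.56. The cells of both ages covered almost the same range, and no gap separated young from old cells. The gene was expressed in 35 young cells (67.3%, 52.9% to 79.7%) and in 48 old cells (77.4%, 65.03% to 87.1%), while 9 young and 8 old cells had no *Myc* read. The mean level was 4.56 in young and 5.12 in old cells, a difference of 0.56 against an SD over cells of 3.47 and 3.25. The higher mean in old cells went with a larger share of expressing cells, since within expressing cells the mean level was 6.59 in young and 6.44 in old cells. Summed over cells, 20855 *Myc* reads (20573 to 21140) were counted in young and 27469 (27145 to 27796) in old cells, which is a CPM of the sum of 144 and 219. After each cell was thinned to 250000 reads, a depth at which a single read makes a cell an expressing one, the shares were 67.3% and 80.6%. When a cell had to reach 10 CPM to count as expressing, the difference between the shares was -0.56 percentage points, against 10.1 at the limit used.

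*Mycn* (chr12:12936093-12941836, minus strand) encodes N-Myc, the second activator. Its level ran from 0 over a median of 1.33 to a highest value of 11.24 in young cells, and from 0 over 2.13 to 11.36 in old cells. In both ages the cells spread from few or no reads up to the highest values, and the ages overlapped over this range. *Mycn* was expressed in 25 young cells (48.1%, 34.01% to 62.4%) and 33 old cells (53.2%, 40.1% to 66.02%). A further 17 young and 9 old cells had reads below the limit, so that 10 young and 20 old cells had none. The mean levels of 3.64 and 3.84 differed by 0.21, far less than the SD over cells of 3.88 and 3.95, and in expressing cells the mean was 7.08 in young and 7.05 in old cells. Summed reads went the other way, with 38418 (38035 to 38804) in the young cells and 27432 (27108 to 27759) in the old ones, a CPM of 264 and 218. The single young cell with the most reads held 27.6% of the young total. The thinned shares were 53.8% and 54.8%. The sign of the difference in mean level turned under 6 of 12 alternatives, so that its direction with age depended on the processing.

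*Max* (chr12:76937269-76962323, minus strand) encodes the partner with which Myc, N-Myc, the Mxd proteins and Mnt bind DNA. Its level was 0 at the lowest and at the median in both ages, with a highest value of 8.73 in young and 8.51 in old cells. The share of expressing cells was close to equal, with 12 young cells (23.1%, 12.5% to 36.8%) and 14 old cells (22.6%, 12.9% to 34.97%), and 34 young and 42 old cells had no *Max* read. Levels within expressing cells were higher in young cells, at a mean of 5.48 (SD 2.32, 12 cells) against 4.30 (SD 2.03, 14 cells). The mean over all cells was 1.31 in young and 1.07 in old cells, a difference of -0.25. There were 4897 reads (4761 to 5036) in the young cells and 1906 (1821 to 1994) in the old ones, and a single cell held 40.02% of the young and 60.4% of the old reads. The thinned shares were 25.0% and 20.97%.

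*Mlx* (chr11:101086707-101092207, plus strand) encodes the Max-like partner. Its level had a lowest value and a median of 0 in both ages and a highest value of 9.63 in young and 9.21 in old cells. Expression was found in 11 young cells (21.2%, 11.1% to 34.7%) and 15 old cells (24.2%, 14.2% to 36.7%), and the mean level was 1.54 and 1.37, so that neither age stood higher on both measures. Another 13 young and 9 old cells had reads under the limit, and the thinned shares were 26.9% and 24.2%. Summed reads were 6349 (6194 to 6507) in the young cells and 4315 (4187 to 4446) in the old ones. Exons of *Mlx* overlap *Psmc3ip* on the opposite strand, and the counting was not stated to use strand, so that part of these reads may belong to either gene.

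*Mxd1* (chr6:86647044-86669234, minus strand) encodes the repressor that is known to replace Myc on Max as blood cells mature. The lowest and median levels were 0 in both ages, and the highest was 10.88 in young and 7.91 in old cells. Expressing cells numbered 13 in the young mouse (25.0%, 14.03% to 38.9%) and 9 in the old one (14.5%, 6.86% to 25.8%), and 29 young and 50 old cells had no read. The shares were thus lower in old cells, although their intervals overlapped. The mean level was 1.51 in young and 0.81 in old cells, a difference of -0.69, while expressing cells had 5.49 and 5.15. Summed reads were 7836 (7663 to 8011) in the young cells and 893 (835 to 954) in the old ones, a CPM of 53.9 and 7.11, but 60.5% of the young reads came from 1 cell. *Mxd1* was the only one of the 8 genes to be at least 1 lower in old cells when 0.1 CPM and not 1 CPM was added before the log, which gave a difference of -1.31. The thinned shares lay closer, at 19.2% and 14.5%.

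*Mxi1* (chr19:53310128-53373293, plus strand) encodes the repressor also called Mxd2. It was expressed in 3 young cells (5.77%, 1.21% to 15.9%), at levels of 2.37, 3.09 and 4.62. In old cells it was expressed in 8 (12.9%, 5.74% to 23.9%), at levels between 4.49 and 9.80, so that within expressing cells only the lowest old value fell below the highest young one. The lowest and median levels over all cells were 0 in both ages, the means were 0.39 and 1.06, and the intervals of the shares overlapped. Reads numbered 145 (122 to 171) in the young cells and 4965 (4828 to 5105) in the old ones. Of the old reads, 66.2% came from 1 cell with 3287 reads, and a second cell held 1135. With cells thinned to 250000 reads, *Mxi1* was found in 3 young and 13 old cells, 5.77% and 20.97%. At that depth a single read passes the limit, whereas at full depth 10 young and 12 old cells had *Mxi1* reads below it. Its exons overlap *Gm10197* on the opposite strand.

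*Mxd4* (chr5:34176580-34187710, minus strand) encodes a further repressor and was the rarest of the 8. Its lowest and median levels were 0 in both ages, and it was expressed in 3 young cells (5.77%, 1.21% to 15.9%), with 241, 82 and 15 reads, and in 2 old cells (3.23%, 0.393% to 11.2%), with 392 and 17 reads. The highest levels were 6.78 in young and 7.80 in old cells, and the means 0.34 and 0.19. Reads totalled 350 (314 to 389) in the young cells and 410 (371 to 452) in the old ones, 95.6% of the latter in 1 cell. That cell was among the 8 old cells with both *Xist* and Y-linked reads, and without the cells of this kind the difference in mean level was -0.29 in place of -0.16. *Mxd4* exons overlap the opposite-strand gene *Gm42846*, and at these counts no difference between ages was detectable.

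*Mnt* (chr11:74830806-74845725, plus strand) encodes a repressor that is known to oppose Myc on Max in many tissues. The lowest and median levels were 0 in both ages, with a highest value of 9.20 in young and 8.32 in old cells. *Mnt* was expressed in 6 young cells (11.5%, 4.35% to 23.4%) and 13 old cells (20.97%, 11.7% to 33.2%), and 41 young and 44 old cells had no read. More old cells than young ones thus carried *Mnt*, with overlapping intervals, and the thinned shares were 17.3% and 22.6%. The mean level was 0.79 in young and 1.42 in old cells, a difference of 0.62 against an SD over cells of 2.04 and 2.74. In expressing cells it was 6.05 and 6.45. Summed reads were 2559 (2461 to 2660) and 4320 (4192 to 4451), with 71.5% of the young reads in 1 cell and at most 25.4% of the old reads in any cell.

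**Figure D2:**
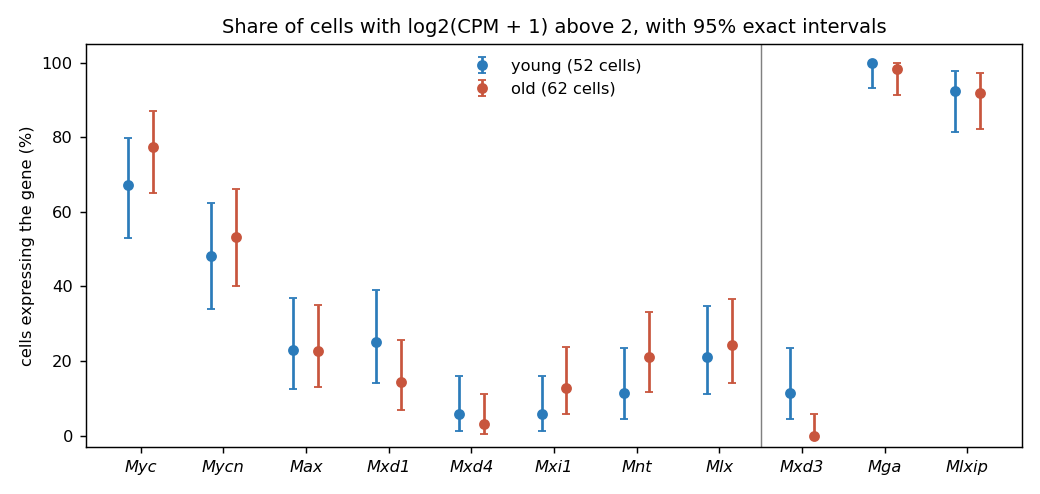
Percentage of cells that expressed each gene on the vertical axis, in 52 young cells (blue) and 62 old cells (red), with 95% exact intervals as bars; the 8 genes stand left of the grey line and 3 related genes right of it. The intervals of the ages overlap for every gene shown, and *Mga* and *Mlxip* stand above 90% in both ages.

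Of the 8 genes, 4 were higher and 4 lower in old cells, and the median difference was 0.02. The 6 that were expressed in at least 10% of the 114 cells, all but *Mxd4* and *Mxi1*, were 3 higher and 3 lower. Over the 9374 genes that passed the same limit the median difference was -0.07 and 45.01% were higher in old cells. A difference of at least 1, a factor of 2, was seen for 0 of the 8 genes in either direction. Over the 9374 genes 6.24% were at least 1 higher and 6.98% at least 1 lower in old cells. The differences of *Mnt* and *Myc* stood at percentiles 86.6 and 84.6 of these genes and that of *Mxd1* at 14.5, and the central 90% ran from -1.15 to 1.11. The count of genes past 1 depended on the scale. By the log2 ratio of summed reads per counted read, *Mxi1* was 5.31 higher in old cells, and *Mxd1* and *Max* stood at -2.92 and -1.15, 1 cell holding 66.2%, 60.5% and 40.02% of the reads on the higher side. Among cells that expressed none of *Ccna2*, *Ccnb1*, *Cdk1* and *Cdc25c*, the difference of *Mxd1* was -1.08.

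**Figure D3:**
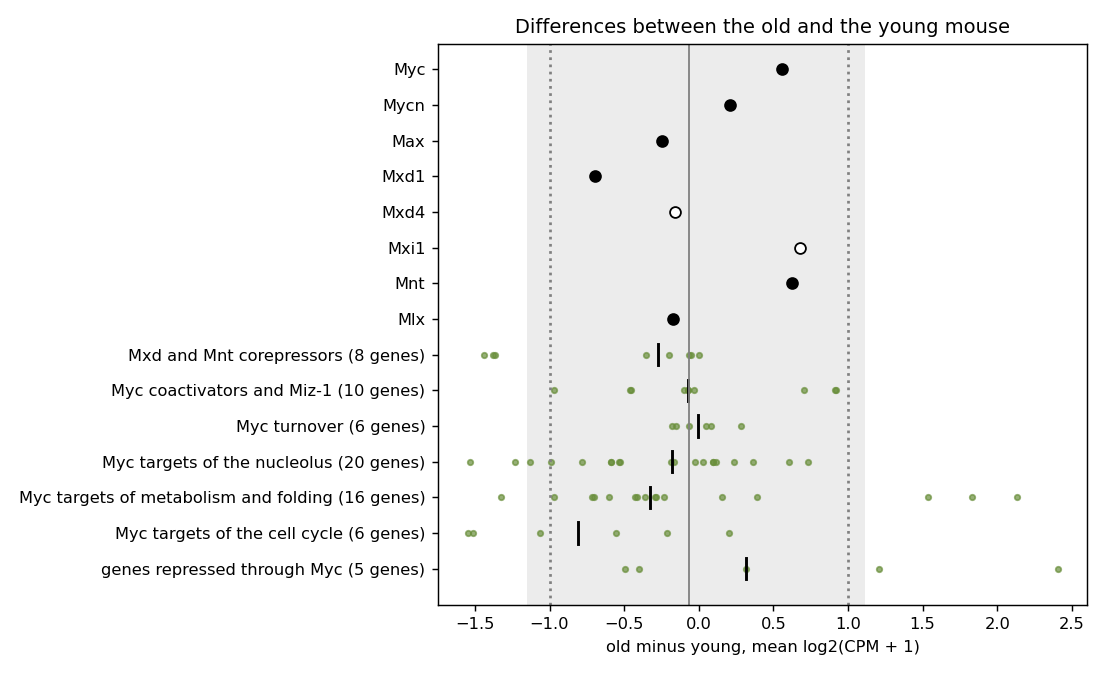
Old minus young difference of mean log2(CPM + 1) on the horizontal axis for the 8 genes (black points, open for the 2 genes expressed in under 10% of cells) and for 7 lists of related genes (green points, with the median as a black bar). The grey band holds the central 90% of 9374 genes, the grey line their median of -0.07 and the dotted lines a difference of 1 either way; all 8 genes lie inside the band, while *Ndrg1* at 2.41 and *Ldha* at 2.13 lie farthest outside it.

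Levels of different genes were compared only per kilobase of exon, as the mean of log2(CPM per kb + 1). On this scale *Myc* was first in both ages, with 3.71 (SD over cells 3.04) in young and 4.16 (SD 2.91) in old cells, and *Mycn* second, with 2.86 (SD 3.37) and 3.08 (SD 3.37). *Mlx* came next in both ages, with 1.24 and 1.09. In young cells *Max* followed with 1.08, *Mxd1* with 0.92, *Mnt* with 0.49, and *Mxd4* and *Mxi1* with 0.20 each. In old cells *Mnt* followed with 0.94, *Max* with 0.84, *Mxi1* with 0.75, *Mxd1* with 0.49 and *Mxd4* with 0.12. The repressor genes thus stood in another order, *Mxd1* above *Mnt* and *Mxi1* in young and below both in old cells. Each gap between neighbours was smaller than the SD over cells of the higher gene, which is the spread of single cells and not the error of a mean, and the order was not tested.

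A further list held 8 genes, of other network proteins and of E-box binders outside the network, and 7 were in the table (*Mlxipl* was not analysed here). Of these, 5 were expressed in at least 10% of cells, with 2 higher and 3 lower in old cells and 0 past a difference of 1. Only *Mga* and *Mlxip* of the 5 belong to the network. *Mga*, which encodes a Max partner with a T-box domain, was found in every young cell and in 61 of the 62 old ones, at mean levels of 7.07 and 6.49. *Mlxip*, which encodes the Mondo protein MondoA that pairs with Mlx, was expressed in 48 young and 57 old cells, at 4.18 and 4.31. These 2 genes were found in far more cells than *Max* and *Mlx* themselves, but shares take no account of exon length. Per kilobase of exon the mean was 3.59 in young and 3.10 in old cells for *Mga*, and 1.81 and 1.99 for *Mlxip*. The part of length in the shares was not tested. *Bhlhe40*, a repressor that binds E-boxes without Max, was at 0.26 in young and 1.13 in old cells and was expressed in 3 and 10 cells. *Usf1*, which encodes an E-box activator outside the network, was expressed in 10 young and 12 old cells, at 1.27 and 1.15. *Mycl* had 1 read in young and 0 in old cells.

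*Mxd3*, the fourth Mxd gene, is known to be expressed in dividing cells, and was found in young cells alone. Expression was found in 6 of 52 young cells (11.5%, 4.35% to 23.4%), with 15, 46, 79, 130, 307 and 1114 reads, and in 0 of 62 old cells, which allows a share of up to 4.84% by the limit of 3 cells. Old cells had 0 *Mxd3* reads in all, against 1692 (1612 to 1775) in young cells. All 6 cells expressed at least 2 of the 4 cell cycle genes *Ccna2*, *Ccnb1*, *Cdk1* and *Cdc25c*. *Mxd3* was named after its values were seen. It was expressed in 6 of 114 cells and so lies below the 10% limit.

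Members of the network were next compared between cells that expressed at least 1 of those 4 cell cycle genes and cells that expressed none, within each age. Such cells numbered 27 in the young mouse and 13 in the old one. *Myc* was higher in cells with a cell cycle gene in both ages, with mean levels of 4.96 against 4.12 in young and 6.13 against 4.85 in old cells. In old cells it was expressed in 12 of 13 such cells (92.3%, 63.97% to 99.8%) and in 36 of 49 others (73.5%, 58.9% to 85.1%), and in young cells in 19 of 27 and 16 of 25. *Mycn* went the other way, with 2.64 against 4.71 in young and 2.89 against 4.09 in old cells. It was expressed in 11 of 27 young cells with a cell cycle gene and 14 of 25 without, and in 6 of 13 and 27 of 49 old cells. *Myc* and *Mycn* thus stood on opposite sides in both mice, although all 4 pairs of intervals overlapped.

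Of the other members, *Mxd1* and *Mxd4* had lower means and *Mxi1* higher means in cells with a cell cycle gene in both ages, by less in old cells. *Max*, *Mnt* and *Mlx* did not keep 1 direction. *Mlx* was higher in young cells with a cell cycle gene, at 2.25 against 0.78 and in 9 of 27 cells (33.3%, 16.5% to 53.96%) against 2 of 25 (8%, 0.984% to 26.03%), but not in old cells, at 1.32 against 1.39. *Mxd4* was found in 0 of 27 cells with a cell cycle gene in the young mouse and 0 of 13 in the old one, beside 3 of 25 and 2 of 49 other cells. *Mxd1* was at 1.11 against 1.94 in young and 0.64 against 0.86 in old cells. *Mxi1* was at 0.60 against 0.15 in young cells, expressed in 3 of 27 and 0 of 25. In old cells *Mxi1* was at 1.23 against 1.02, expressed in 2 of 13 and 6 of 49. Young cells with a cell cycle gene also expressed more genes, with a median of 4614 against 3862, and the median gene of the 9374 was 0.25 higher in them. In old cells the medians were 3760 and 3939 genes and the median gene was 0.04 higher. The part of the number of detected genes in these differences was not tested.

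**Figure D4:**
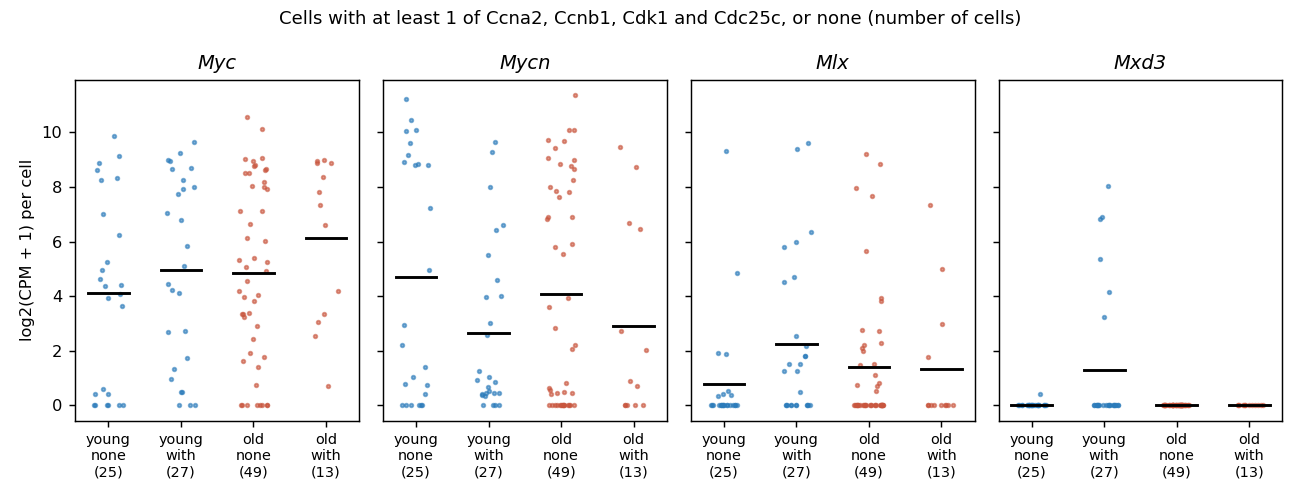
Levels of *Myc*, *Mycn*, *Mlx* and *Mxd3* in each cell as log2(CPM + 1) on the vertical axis, for young (blue) and old (red) cells that express none of 4 cell cycle genes or at least 1 of them; points are cells and black bars their means. *Myc* means are higher and *Mycn* means lower in cells with a cell cycle gene in both ages, and *Mxd3* is above the limit of 2 in young cells with a cell cycle gene only.

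Within single cells, *Myc* and *Mycn* occurred in all 4 combinations. Both were expressed in 16 young cells (30.8%, 18.7% to 45.1%) and 26 old cells (41.9%, 29.5% to 55.2%), *Myc* alone in 19 young and 22 old cells, *Mycn* alone in 9 young and 7 old cells, and neither in 8 young and 7 old cells. At least 1 activator was thus expressed in 44 of 52 young (84.6%, 71.9% to 93.1%) and 55 of 62 old cells (88.7%, 78.1% to 95.3%). The levels of the pair were close to unrelated, with a Pearson r of -0.02 over 52 young and -0.04 over 62 old cells.

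At least 1 of *Mxd1*, *Mxd4* and *Mxi1* was expressed in 19 young cells (36.5%, 23.6% to 51.04%) and 16 old cells (25.8%, 15.5% to 38.5%). In young cells 16 of these 19 also expressed *Myc* or *Mycn*, and in old cells all 16 did. An Mxd gene without either activator was therefore seen in 3 of 52 young cells and 0 of 62 old cells, which by the same limit of 3 cells allows a share of up to 4.84%. All 9 old cells with *Mxd1* also expressed *Myc*, as did 10 of the 13 young ones, beside 48 of all 62 old and 35 of all 52 young cells. *Max* was expressed in 9 of 44 young cells with an activator and 3 of 8 without, and in 11 of 55 and 3 of 7 old cells. Most cells with an activator had no *Max* above the limit, and at this depth a cell without reads of a gene cannot be told from a cell without its RNA.

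**Figure D5:**
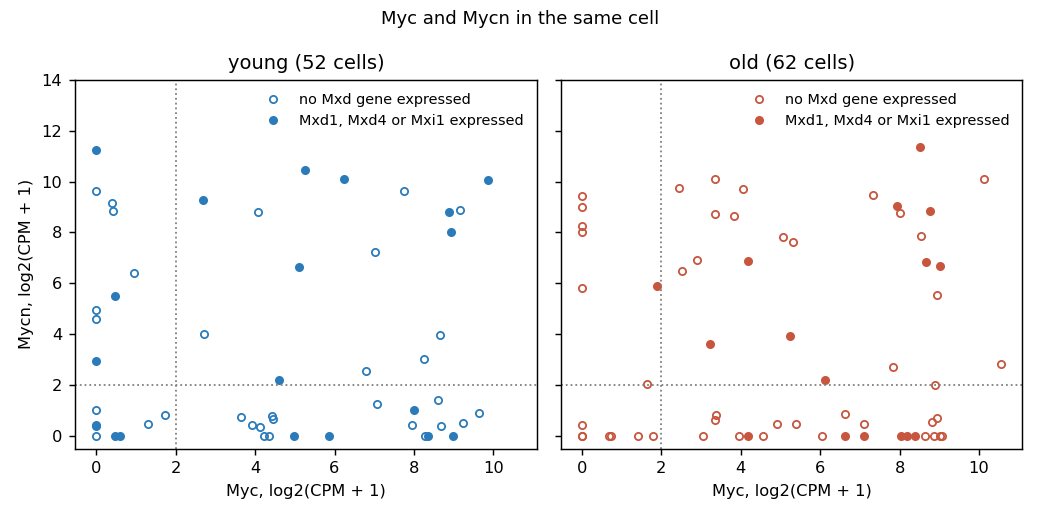
*Myc* on the horizontal and *Mycn* on the vertical axis, both as log2(CPM + 1), in each of 52 young (blue) and 62 old (red) cells, with filled points for cells that express *Mxd1*, *Mxd4* or *Mxi1* and dotted lines at the limit of 2. Cells occupy all 4 fields in both ages, with 16 young and 26 old cells in the upper right. No filled point lies in the lower left of the old cells, a field that holds 7 cells.

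Cells expressed between 0 and 4 of the 8 genes in the young and between 0 and 5 in the old mouse, with a median of 2 in both. A cell with 4 or more was seen 5 times among young cells and 12 times among old cells, 2 of the latter with 5. Over the 28 pairs of genes, Pearson r ran from -0.22 (*Mycn* and *Mlx*) to 0.28 (*Mnt* and *Mlx*) in young cells and from -0.20 (*Max* and *Mnt*) to 0.22 (*Myc* and *Mxd1*) in old cells. These are weak correlations in sparse counts from shared libraries and no pairing of genes is read from them. *Myc* level had an r of -0.34 with the log10 of counted reads in young cells and 0.04 in old cells, and *Mxd1* an r of 0.44 with the number of genes expressed in old cells and 0.04 in young cells.

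The genes through which the network acts were taken from fixed lists. Of 8 corepressor genes of Mxd and Mnt expressed in at least 10% of cells, 7 were lower in old cells and 3 were lower by at least 1, with a median of -0.28. Over the 9374 genes 5155 were lower, 6.98% by at least 1. *Sin3a*, a scaffold that Mxd proteins and Mnt bind, was at 4.24 in young and 2.80 in old cells, with 31 expressing cells in the young and 25 in the old mouse. Its relative *Sin3b*, of the same list, was at 3.00 and 2.93, with 27 and 30 expressing cells. *Rbbp7*, a histone-binding subunit of Sin3 complexes, was at 6.87 and 5.50, and its relative *Rbbp4*, named as the last of the 3, at 6.34 and 4.97. The deacetylase gene *Hdac1* was at 4.19 in both ages. Of 10 genes of Myc coactivators and Miz-1, 3 were higher and 7 lower, 0 of them by 1 or more, with a median of -0.07. *Trrap*, the scaffold of Myc-bound acetylases, was at 3.97 and 3.00. The helicase gene *Ruvbl1* was at 4.34 and 5.27 and the acetylase gene *Kat2a* at 0.97 and 1.88. Genes of Myc protein turnover stayed near the median of all genes, with 3 of 6 higher, a median of -0.01 and differences between -0.18 (*Usp28*, a deubiquitinase) and 0.28 (*Pim1*, a kinase), and *Gsk3b*, which encodes a kinase that phosphorylates Myc, at 0.08.

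Genes known as Myc targets did not share a direction, and their counts stand beside 6.24% of the 9374 genes at least 1 higher and 6.98% at least 1 lower in old cells. Of 20 targets of the nucleolus, 8 were higher and 12 lower in old cells, 0 and 3 by at least 1, with a median of -0.18. The helicase gene *Ddx21* was at 4.86 in young and 3.33 in old cells and *Tcof1*, a factor of ribosomal RNA synthesis, at 4.13 and 2.90, while the box C/D ribonucleoprotein genes *Nop58* and *Fbl* were at 5.16 and 5.90 and at 2.42 and 3.02. Of 16 targets of metabolism and folding, 5 were higher and 11 lower, 3 and 1 by at least 1, with a median of -0.33. The glycolytic genes *Ldha* and *Hk2* were at 7.20 and 9.33 and at 2.47 and 4.30, whereas *Impdh2*, an enzyme of guanine nucleotide synthesis, was at 7.07 and 5.74 and the chaperonin gene *Hspe1* at 4.97 and 4.01. Of 6 targets of the cell cycle, 5 were lower in old cells, 3 of them by at least 1, with a median of -0.81. *Mcm5*, a subunit of the replication helicase, was at 4.43 and 2.88, *Cdk4*, the kinase of D cyclins, at 6.39 and 4.88, and *E2f1* at 2.70 and 2.91. All 4 cell cycle reference genes were also at least 1 lower in old cells, with a median of -1.55, and the mean of *Cdk1* was 2.53 and 0.76 and that of *Ccna2* 1.68 and 0.07. The study had named these 4 genes from the same data as more often expressed in young cells, so their count is not an independent result. The part of cells in cycle in the lower levels of the targets was not tested.

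Of 5 genes that Myc is known to repress, 3 were higher and 2 lower in old cells, with 2 at least 1 higher, beside 6.24% of all 9374 genes, and a median of 0.32 (*Cdkn2b* was not analysed here). *Ndrg1*, a gene of differentiation and stress, was at 1.10 in young and 3.51 in old cells and was expressed in 9 and 35 cells. *Cdkn1a*, which encodes the CDK inhibitor p21, was at 0.33 and 1.54 and was expressed in 2 and 16 cells. *Cdkn1b*, which encodes p27, was at 4.26 and 3.86, and *Gadd45a* at 0.90 and 0.41. *Myc* itself is known to respond early to growth signals. All 8 immediate-early genes listed were higher in old cells, 7 of them by at least 1 (6.24% over the 9374 genes), with a median of 2.86, and *Egr1* was at 6.66 and 11.12 and *Btg2* at 1.73 and 6.85. The study had named *Egr1*, *Egr3*, *Ier3* and *Junb* from these same data as expressed in more old cells. The count is therefore not an independent result. The *Myc* level of a cell had a Pearson r of 0.23 with the mean level of the 8 immediate-early genes in young and 0.06 in old cells, which is weak. The part of the 8 genes in the *Myc* difference was not tested.

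Target levels were also compared between cells that did and did not express *Myc*. In old cells the mean level over the 20 nucleolar targets was 3.85 (SD 0.94) in the 48 cells with *Myc* and 3.17 (SD 0.51) in the 14 cells without, and 15 of the 20 genes were higher in cells with *Myc*. In young cells the means were 4.08 (SD 1.09, 35 cells) and 3.83 (SD 0.82, 17 cells), and 13 of 20 genes were higher. The differences of 0.69 and 0.25 compare with a median difference over all 9374 genes of 0.29 and 0.08 and with medians of 4039 against 3556 genes expressed in old and 4119 against 3862 in young cells. These medians are above 0, so genes at large also tended to be higher in cells with *Myc*. The share of all genes that were higher is not given here. The counts of genes higher in this paragraph are therefore a description and not a result about the targets. The targets of metabolism and folding were 0.43 higher in old and 0.26 higher in young cells with *Myc*, and those of the cell cycle 0.42 higher and 0.41 lower. In young cells 3 of the 6 cell cycle targets were nevertheless higher with *Myc*, and the median over the 6 was 0.03. The 5 genes that Myc is known to repress were 0.47 higher in old cells with *Myc*, all 5 of them higher, and stood at -0.21 in young cells, with 2 of 5 higher. In cells with *Mycn* against cells without, the nucleolar targets were 0.38 higher in old cells and stood at -0.38 in young cells. The targets of metabolism and folding were higher with *Mycn* in both mice, by 0.63 in old cells (13 of 16 genes higher) and 0.23 in young cells (9 of 16). Those of the cell cycle were 0.07 higher in old and 0.29 higher in young cells, and the repressed genes 0.39 higher in old cells and at -0.26 in young cells. The median over the 6 cell cycle targets was -0.13 in old and 0.48 in young cells. The median over all 9374 genes for this split was 0.08 in old and -0.02 in young cells.

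The genes most like a member were ranked by the mean of the Pearson r within young and within old cells, among the 6043 genes that reached 20% of expressing cells in each age. For *Myc* they were *Btf3l4* (mean r 0.34), *Lyz2* (0.34) and *Rnf114* (0.33), and for *Mycn* they were *Ppan* (0.38), *Sec31a* (0.30) and *Gpbp1* (0.30). For *Max* they were *Galnt11* (0.40), *Cdk7* (0.33) and *Dusp11* (0.31), and for *Mlx* they were *Slc16a1* (0.42), *Rgl2* (0.39) and *Vps13d* (0.37). No other network gene was among these 12 genes. They are the highest of many values over 52 and 62 cells that share libraries and depth, and are given as a description.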

How the data were processed

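Libraries of single HSCs from 1 young and 1 old mouse gave unpaired reads of 51 bases. These were mapped by the authors to mm10 with TopHat2 2.0.10 (submitters' processing notes), with 1 alignment kept for each, and the authors deposited raw counts per RefSeq gene and cell, without normalization. Reads of near-identical genes may be placed on either copy. From the counts, CPM and log2(CPM + 1) were computed over each cell's counted total. Cells were kept at a minimum of 500000 mapped reads, at most 10% mitochondrial reads and a minimum of 3000 genes, and 9 young and 12 old cells were left out. Doublets were not called. Each age is 1 mouse, so no test was run and p-values are not given. The genes analysed and all lists were chosen with earlier results of these data known.

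Named were all 8 genes, at most 4 genes of each other list (2 with the largest rises and 2 with the largest falls, of those found in 10% or more of cells), and the 3 genes most correlated with each of *Myc*, *Mycn*, *Max* and *Mlx*, which reached 20% of expressing cells in each age. *Rbbp4*, *Sin3b*, *Mxd3*, *Mycl* and the lineage markers were named beside this rule. Values of some genes under this rule are not reported here. Gene positions and promoters are from RefSeq on GRCm38.p6, and exon lengths from GENCODE M21 transcripts with a RefSeq accession. Alternatives covered the cells used, thinning to 250000 reads, the TMMwsp factors of edgeR 4.0.16, the poscounts factors of DESeq2 1.42.0, the pseudocount, the scale and the limit for an expressing cell. The steps were tested on simulated counts. Work was done in R 4.3.3 and in Python 3.11.15 with numpy 2.4.6, scipy 1.17.1, matplotlib 3.10.9 and pandas 2.3.3.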

Additional observations from a re-analysis of the deposited data

How the results depend on the processing

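No paired analysis was possible because each age is 1 mouse and no test was run. Of 96 differences in mean level (8 genes under 12 alternatives), 86 moved by a ratio of less than 1.5 and 9 changed sign. *Myc*, *Max*, *Mxd1*, *Mxi1* and *Mnt* kept their sign under every alternative, while *Mycn* turned in 6, *Mxd4* in 2 and *Mlx* in 1. *Mycn* stood at -0.62 and *Mlx* at 0.60 where cells with any of the 4 cell cycle genes were left out. The number of the 8 genes at least 1 higher in old cells was 0, and 1 (*Mxi1*) by the log2 ratio of mean CPM and by that of summed counts. The number at least 1 lower was 0, and 1 (*Mxd1*) both among cells without a cell cycle gene and with a pseudocount of 0.1 CPM, and 2 (*Max* and *Mxd1*) by each of those ratios. The ratios weigh single cells with many reads, and the cause of the other shifts was not tested. The median difference of 0.02 changed sign in 5 of 11 alternatives and lay between -0.14 and 0.08. The median of all 9374 genes, -0.07, was -0.03 with TMMwsp and -0.07 with poscounts factors. Of 80 differences in share, 71 kept both shares within their 95% intervals and 10 changed sign. Of these 10, 5 were of *Mlx*, 2 of *Mycn*, 2 of *Max* and 1 of *Myc*. Leaving out the 2 young and 8 old cells with both *Xist* and a Y-linked gene, an alternative chosen after seeing the data, changed the sign for *Mycn*, whose difference was -0.05. Thinning changed which cells count as expressing, since at 250000 reads a single read passes the limit. At that depth *Mxi1* was found in 13 old cells in place of 8, and *Mxd1* in 10 young cells in place of 13.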

Other observations

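The 9 young and 12 old cells that missed the limits enter no comparison above. *Myc* was expressed in 5 and 9 of them, with a median level of 2.18 in the young and 5.13 in the old ones, and *Mycn* in 2 and 3. *Mxi1* was expressed in 2 cells of each age and reached 7.51 in a young and 11.02 in an old cell, above the highest values of 4.62 and 9.80 in the cells analysed, and its mean level in the cells left out was 1.61 in young and 1.44 in old ones. *Mnt* was expressed in 0 and 3 of these cells, *Mlx* in 2 and 1, *Mxd1* in 2 and 0, *Max* in 1 and 0, and *Mxd4* in 1 and 0.

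*Slc16a1*, the gene with the highest mean correlation with *Mlx*, encodes a lactate transporter, and had a Pearson r of 0.38 over 52 young and 0.45 over 62 old cells. *Ppan*, a gene of ribosome assembly, had an r of 0.50 and 0.26 with *Mycn*. These genes were noticed among the highest of 6043 values, and no test was made on other cells.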
